A study of Mus musculus with 9 samples.

Results

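Of the 43548 mouse gene identifiers in the deposited table, 10 encode the insulin-like growth factor (IGF) system examined here: the ligands Igf1 and Igf2, the receptors Igf1r and Igf2r, and the binding proteins Igfbp2, Igfbp3, Igfbp4, Igfbp5, Igfbp6 and Igfbp7. They were taken by name and not by a threshold on their values, but with earlier results of these data known. All 10 were among the 18714 genes that passed the filter on low values. RNAseq was performed on 3 groups of E14.5 tissue, each with 3 libraries. The MCAGF8 cranial vault carried both Msx2-Cre and the CAGFgf8 allele, so that Cre, made in the surface ectoderm, switched on an Fgf8b transgene driven by the CAG promoter in that layer. Control vault and control base samples, labelled wildtype, came from embryos of the same cross that lacked Cre, and all groups were of mixed strain. The paper states that Cre mice were mated to homozygotes for the Fgf8b alleles, so that every embryo inherits such an allele. By that account the controls also carried the CAGFgf8 allele, without Cre to switch it on. Skin, the layer in which the transgene is active, was peeled off before the vault was taken, and the cartilage of the base was taken after removal of the brain. In each group, RNA of 9 samples went into 3 pools of 3, and whether vault and base pools share embryos was not stated. Errors therefore describe the spread between pools, and p-values treat the 9 pools as independent.

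IGF1 and IGF2 are small secreted growth factors that signal through the tyrosine kinase receptor IGF1R to promote growth, survival and differentiation, including that of osteoblasts and growth plate chondrocytes. IGF2R takes up IGF2 and delivers it to lysosomes, and the gene for IGF2 is an imprinted gene expressed strongly in embryos. Secreted binding proteins hold the ligands, block or prolong their action, and release them when cut by proteases.

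Expression is given as FPKM, fragments scaled to transcript length and to the mapped fragments of a library, so that levels can be compared between genes per length. The summed FPKM of a library ran from 793249 to 1315980, and the number of reads behind it is unknown. Fgf8 was 3.01 to 13.5 FPKM in the control vault and 9.43 to 19.5 in the MCAGF8 vault, and these ranges overlap. Although the skin had been peeled off, the epidermal keratin Krt5 was at 5.27, 29.2 and 1.63 FPKM in the control vault and at 149, 139 and 252 in the MCAGF8 vault (called, limma adjusted p = 0.0925). The 11 epidermis markers summed to 34.3 to 117 FPKM and to 417 to 1049.8 in these groups. Dusp6, a feedback target of FGF signalling, was 26.9 to 32.6 against 46.5 to 59.5. Control base replicate 2 stood apart, with its 12 cartilage markers summing to 10624 FPKM. Its correlation with the other base libraries was at most 0.927, where pairs within the vault groups reached at least 0.959. Base replicates 1 and 3 correlated at 0.946. Base replicate 1 stood apart in another way: its log2 deviations had a slope of -0.21 on log2 exon length. In the other libraries this slope ran from -0.063 to 0.096. Bone markers summed to 4078 to 7359.6 FPKM in the control vault, 2269.5 to 2988 in the MCAGF8 vault and 1021 to 2449.9 in the base. Most of the MCAGF8 vault sums was Col1a1, at 2523, 2666 and 2102 FPKM. Of the 12 bone markers, 10 were lower in the MCAGF8 vault than in the base and 2 higher. Cartilage markers ran from 2087 to 3027 in the control vault and from 2845 to 5223 in the MCAGF8 vault. In base replicates 1 and 3 they summed to 1197 and 1657, below every vault library. Not all markers of the list followed this sum. In these replicates Snorc was at 199 and 150 FPKM, against at most 47.5 in any vault library. Comp was also above every vault library there. How much cartilage these libraries held was not tested. In every library each marker of both lists was above 0.

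Igf2 stood at the top of the 10 genes in every group. In the order of mean FPKM over all genes it ranked 6th in the control vault, 4th in the MCAGF8 vault and 8th in the base. In the control vault the order was Igf2, Igfbp4, Igfbp2, Igfbp5, Igfbp3, Igf1, Igf2r, Igfbp7, Igf1r and Igfbp6, and only Igf1 with Igf2r and Igf1r with Igfbp6 had overlapping ranges as neighbours. The order was the same in the MCAGF8 vault except that Igf2r stood above Igf1. There the neighbours with overlapping ranges were Igfbp4 with Igfbp2, Igfbp3 with Igf2r, and Igf1 with Igfbp7. In the base Igfbp5 stood above Igfbp2 and Igfbp7 above Igf2r. There Igfbp4 with Igfbp5, Igf1 with Igfbp7, Igfbp7 with Igf2r, and Igf1r with Igfbp6 overlapped.

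**Figure D1:**
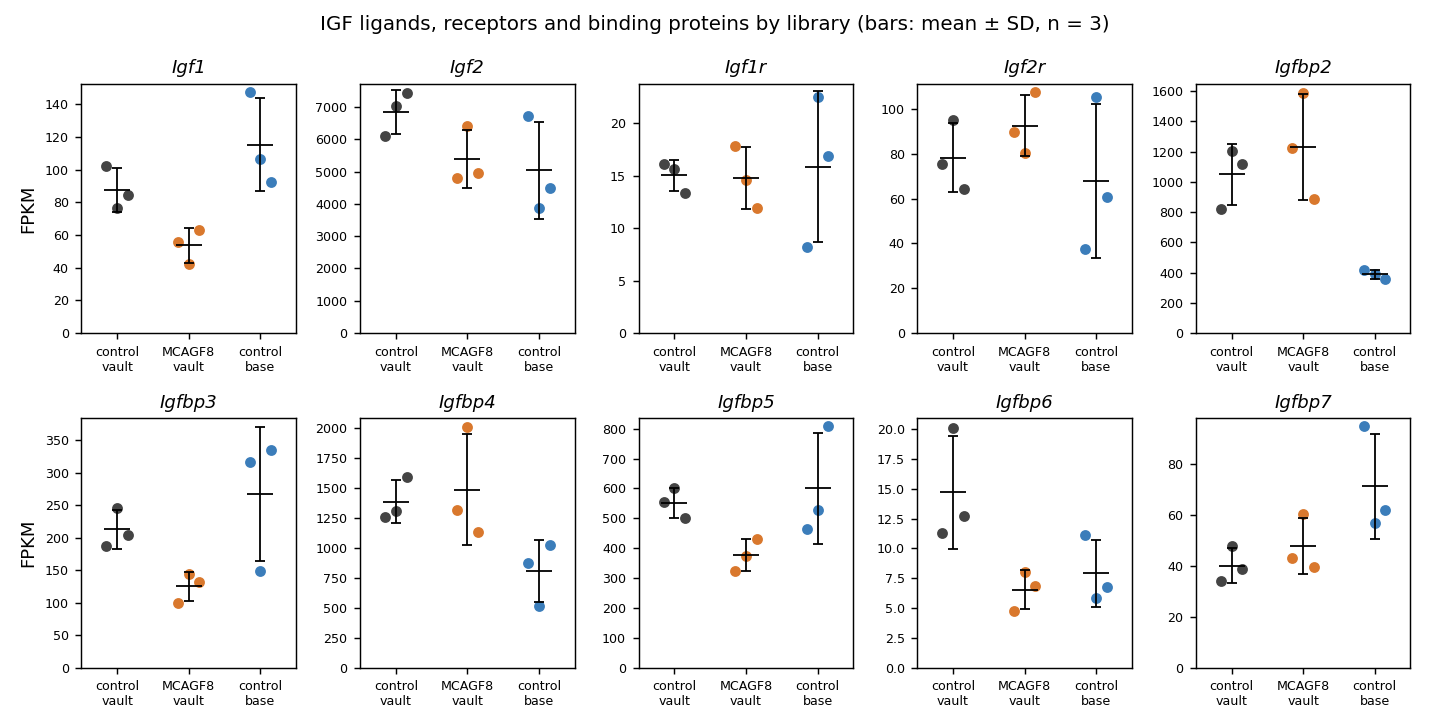
FPKM of the 10 IGF genes in each library (points), by group, with the mean and SD of 3 libraries (bars) and a separate vertical axis from 0 for each gene. Igf1, Igfbp3, Igfbp5 and Igfbp6 have all 3 MCAGF8 vault points below all 3 control vault points, and Igfbp2 is lowest in the control base, at 355 to 417 FPKM.

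The first comparison sets the MCAGF8 vault, dissected from under ectoderm with the active transgene, against the control vault. These libraries also differed in other tissues. Epidermis markers summed to 417 to 1049.8 FPKM against 34.3 to 117, and muscle markers to 60.3 to 308 against 1133 to 6909. The part of these tissues in the differences below was not tested. Igf1, Igfbp3, Igfbp5 and Igfbp6 were lower in all 3 MCAGF8 libraries than in any control vault library, and no IGF gene was higher in all 3. For single genes this pattern was not rare: 9.35% of the 18714 genes tested were lower without overlap and 9.9% higher. A call here needs both p under 0.05 and, after Benjamini-Hochberg adjustment over all genes, p under 0.1 in limma. By that rule 0 of the 10 IGF genes were called, beside 0.604% of all genes. At an unadjusted p under 0.05 limma gave 3 IGF genes, Igf1, Igfbp3 and Igfbp6, with a background of 6.34%. The per-gene linear model without moderation gave 2, Igf1 and Igfbp6, and called 0. The median log2 difference of the 10 was -0.19, where that of all genes was -0.01. In bulk tissue, fewer cells of a type and less RNA per cell cannot be told apart.

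Both base comparisons use the same control base libraries. The control base, dissected as cartilage of the skull floor, enters as a second tissue. Its cartilage marker sum was high only in replicate 2, while Snorc and Comp were above every vault library in all 3 replicates. MCAGF8 vault against control base called 2 of 10, beside 8.39% of all genes: Igfbp2 was higher, as 2.98% of all genes were, and Igf1 lower, as were 5.41%. At an unadjusted p under 0.05 limma gave 5 IGF genes there, with a background of 19.6%. Control base against control vault called 1, Igfbp2, beside 3.06% of all genes. It was lower in the base, as 1.21% of all genes were, and an unadjusted p under 0.05 was reached by 4 IGF genes, with a background of 12.8%. In that comparison Igfbp2, Igfbp4 and Igfbp6 were lower and Igfbp7 higher without overlap, where 6.69% and 8.86% of all genes were. Since the comparisons share libraries, the values for each gene are given side by side and no agreement between them is counted. The share of all genes in which 1 group lies below or above both others was not computed.

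**Figure D2:**
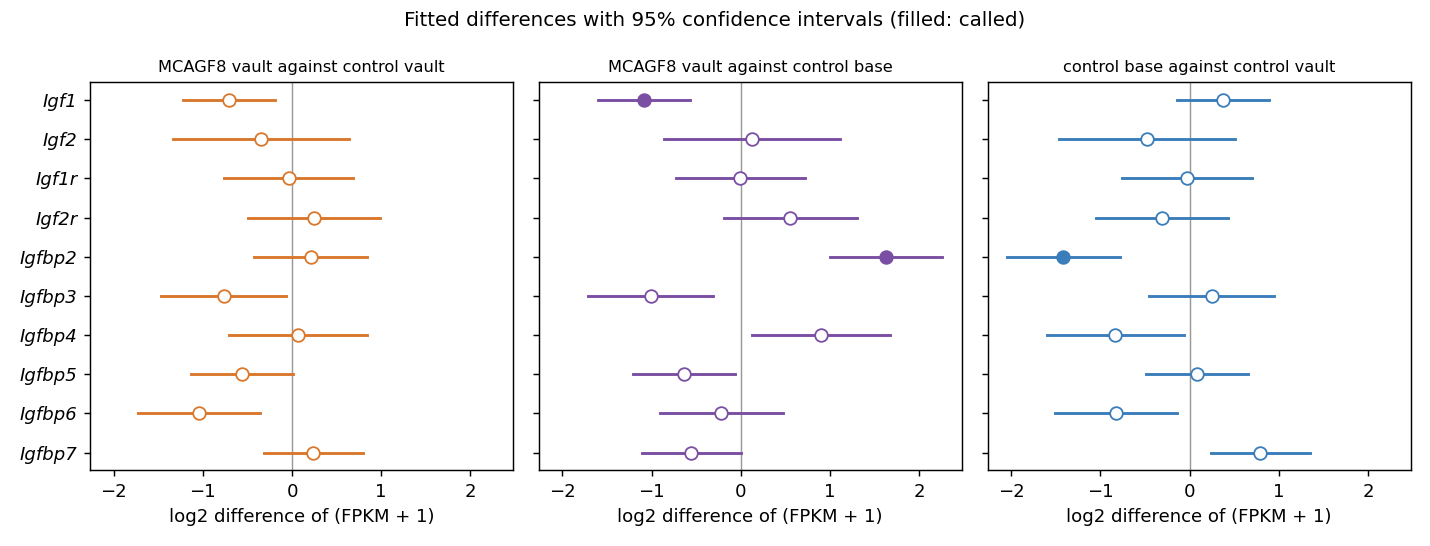
Fitted difference of each IGF gene on the scale log2(FPKM + 1), first group minus second (points), with the 95% confidence interval (lines), in the 3 comparisons. Filled points mark the calls: Igf1 (-1.08) and Igfbp2 (1.63) where the MCAGF8 vault is set against the base, and Igfbp2 (-1.42) in the control base against the control vault.

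Igf1 encodes the ligand known for its part in postnatal and bone growth. The gene lies on chromosome 10 at 87858265 to 87937042 (+ strand, GRCm38, GENCODE M21). It was at 102, 76.3 and 84.3 FPKM in the control vault and at 55.7, 41.9 and 63.0 in the MCAGF8 vault. In the control base the libraries held 147, 106 and 92.2. Every MCAGF8 library was thus below every library of either control tissue, while the control tissues overlapped each other. Against the control vault the mean was lower, 53.5 ± 10.7 against 87.6 ± 13.3 (SD, n = 3 each), a ratio of 0.611. The fitted log2 difference of -0.71 (SE 0.23) was not called (limma adjusted p = 0.442). Against the base mean of 115 ± 28.6 Igf1 fell by 1.08 on the log2 scale (SE 0.23, limma adjusted p = 0.0286), a ratio of 0.465. That call was lost without MCAGF8 vault replicate 1 or replicate 2 (adjusted p = 0.103 each in limma) and with FPKM rescaled to a common sum (0.118). It held in 17 of 20 alternatives, over which the adjusted p ran from 0.0202 to 0.118. The control tissues differed by 0.37, base over vault, with an interval of -0.14 to 0.89 and an adjusted p of 0.614 in limma.

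Igf2, the fetal ligand, lies on chromosome 7 at 142650766 to 142666816 (- strand). Its FPKM were 6098, 7019 and 7426 in the control vault, 4809, 6429 and 4952 in the MCAGF8 vault, and 6728, 3889 and 4504 in the base. All 3 ranges overlapped. The fitted difference between MCAGF8 and control vault was -0.35 with an interval of -1.34 to 0.64 (limma adjusted p = 0.975), wide enough to hold a change in either direction, and quantile normalization turned it to 0.17. Against the base the MCAGF8 vault differed by 0.13 (-0.86 to 1.11). Exons of Igf2 share 3596 bases with Gm49394 on the same strand, which the table does not list, and 98 bases with the antisense gene Igf2os. The library kit kept strand, but whether the counting used it was not stated, so reads of the 98 bases may be split between genes. Strand cannot separate the bases shared with Gm49394.

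The ratio of Igf2 to Igf1 FPKM was 59.6, 92.0 and 88.1 in the control vault, 86.3, 153 and 78.6 in the MCAGF8 vault, and 45.7, 36.6 and 48.9 in the base. The base ratios were all below those of both vault groups, and the vault groups overlapped. Both ligands together came to 6201, 7095 and 7511 FPKM in the control vault, 4865, 6471 and 5015 in the MCAGF8 vault, and 6875, 3995 and 4596 in the base.

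Igf1r, the signalling receptor, lies on chromosome 7 at 67952827 to 68233668 (+ strand). It was at 16.1, 15.6 and 13.4 FPKM in the control vault and at 17.8, 14.6 and 11.9 in the MCAGF8 vault. In the base it was spread from 8.19 in replicate 1 to 22.5 in replicate 2, with 16.9 in replicate 3. The vault groups differed by -0.04 on the log2 scale, with an interval of -0.76 to 0.69. The sign of this small difference turned with rescaling to a common sum (0.13).

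Igf2r, the clearance receptor, lies on chromosome 17 at 12682406 to 12769664 (- strand). It was at 75.3, 95 and 64.4 FPKM in the control vault, 89.6, 80.5 and 108 in the MCAGF8 vault, and 37.7, 105 and 60.5 in the base. The ranges overlapped in all comparisons. The largest of its differences was MCAGF8 vault against base, at 0.56 with an interval of -0.19 to 1.30 (limma adjusted p = 0.393). Without control base replicate 2 that difference was 0.93 and was called (limma adjusted p = 0.0362). In that fit 4561 of 18624 genes were called, against 1571 of 18714 with all libraries. Per length, Igf2r exceeded Igf1r in every library, by ratios of 3.58 to 9.01. Airn, the noncoding RNA that overlaps Igf2r on the other strand but shares no exon bases with it, was at 34.1 to 47.4 FPKM in the control vault, 33.7 to 52.2 in the MCAGF8 vault and 41.6 to 70.7 in the base.

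The 4 most abundant binding protein genes split into pairs in the MCAGF8 vault against the base: Igfbp2 and Igfbp4 were higher in all 3 MCAGF8 libraries, and Igfbp3 and Igfbp5 were lower in all 3. With Igf1, which was also lower, 5 of 10 IGF genes did not overlap, where 8.91% of all genes were higher and 13% lower without overlap. Their promoters are shown so that the pairs can be compared, as the 250 bases before the RefSeq start (GRCm38.p6), 5′ to 3′ on the strand of the gene. Capitals mark matches to short motifs, searched on both strands, none of which holds another. The letters TATAAA were searched for the core promoter element bound by TBP and GGGCGG for the GC box bound by Sp1. For RUNX factors of the bone lineage the letters were TGTGGT, for TCF/LEF factors of Wnt signalling they were CTTTGA, and for AP-1 they were TGANTCA. For NF-Y, CCAAT was searched, and CAGCTG for factors that bind an E-box.
Igfbp2, chr1:72824230-72824479, + strand: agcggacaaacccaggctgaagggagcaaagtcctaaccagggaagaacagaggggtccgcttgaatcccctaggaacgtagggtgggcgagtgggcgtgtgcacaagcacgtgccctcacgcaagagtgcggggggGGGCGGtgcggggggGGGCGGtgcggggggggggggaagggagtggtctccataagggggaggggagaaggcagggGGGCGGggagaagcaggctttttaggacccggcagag
Igfbp4, chr11:99040994-99041243, + strand: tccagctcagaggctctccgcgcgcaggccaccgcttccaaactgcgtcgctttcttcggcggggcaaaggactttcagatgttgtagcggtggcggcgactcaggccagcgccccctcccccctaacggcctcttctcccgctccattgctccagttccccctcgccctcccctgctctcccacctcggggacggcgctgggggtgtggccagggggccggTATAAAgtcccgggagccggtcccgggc
Igfbp3, chr11:7213924-7214173, - strand: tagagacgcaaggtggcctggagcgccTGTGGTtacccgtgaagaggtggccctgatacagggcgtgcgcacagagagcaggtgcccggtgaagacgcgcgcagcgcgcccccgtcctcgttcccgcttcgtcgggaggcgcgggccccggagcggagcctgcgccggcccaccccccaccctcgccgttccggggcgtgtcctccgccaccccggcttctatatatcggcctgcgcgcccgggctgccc
Igfbp5, chr1:72874866-72875115, - strand: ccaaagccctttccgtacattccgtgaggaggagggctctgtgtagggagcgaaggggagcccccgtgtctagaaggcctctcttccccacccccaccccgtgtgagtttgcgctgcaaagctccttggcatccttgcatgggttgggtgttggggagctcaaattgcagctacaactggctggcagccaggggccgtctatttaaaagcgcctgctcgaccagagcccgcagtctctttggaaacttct
The Igfbp2 window held 3 GC boxes, a motif present in 32.7% of 32851 promoters of the same length. RefSeq lists a second Igfbp2 start at 72825387, not printed, whose window held no GC box but 1 AP-1 motif, 39 bases before that start, as 6.75% of promoters do. The Igfbp4 window held a TBP element 28 bases before the start, a motif in 12.4% of promoters, and the Igfbp3 window held 1 RUNX motif, found in 14% of them. In the Igfbp5 window none of the searched letters occurred. The RefSeq start of Igfbp5, at 72874865, lies inside the GENCODE span of the gene, which ends at 72874884. Part of the printed window thus lies within that span. GC content was 67.2%, 69.2%, 73.2% and 58.8% in the order printed, against a median of 52.4% over all promoters. By these exact letters no motif was shared between the members of either pair, and near matches were not searched.

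Igfbp2, which is abundant in fetal tissues and binds IGF2 well, lies on chromosome 1 at 72824503 to 72852474 (+ strand), and Igfbp5 is its neighbour, at 72857932 to 72874884 on the - strand. Igfbp2 was at 820.2, 1206 and 1121 FPKM in the control vault and at 1224, 1588 and 886 in the MCAGF8 vault. In the base the libraries held 417, 393 and 355. The base was low in all 3 libraries, and the vault groups overlapped. In the MCAGF8 vault the mean of 1233 ± 351 was 3.18 times the base mean of 388 ± 31.3 (SD, n = 3 each). It rose by 1.63 on the log2 scale (SE 0.28, limma adjusted p = 0.0129), and this call held in 20 of 20 alternatives. In the base Igfbp2 fell by 1.42 from the control vault mean of 1049 ± 203 (SE 0.28, limma adjusted p = 0.0471). That second call held in 15 of 20 alternatives. It was lost when only these 2 groups were fitted (0.117), with the replicate number as a block (0.141), and without control vault replicate 2 (0.176), control vault replicate 3 (0.191) or control base replicate 3 (0.129), all limma adjusted p. Between MCAGF8 and control vault the difference was 0.21, with an interval of -0.42 to 0.85.

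Igfbp4, a binding protein that mostly inhibits IGF action and is cut by the protease PAPP-A, lies on chromosome 11 at 99041244 to 99054392 (+ strand). Its FPKM were 1257, 1307 and 1591 in the control vault, 1319, 2006 and 1130.2 in the MCAGF8 vault, and 873, 518 and 1023 in the base. The base was low in all 3 libraries, without overlap with either vault group. The fitted difference was 0.90 for the MCAGF8 vault over the base (SE 0.34, limma adjusted p = 0.189) and -0.83 for the base against the control vault (SE 0.34, limma adjusted p = 0.339). Neither was called. Both were called under quantile normalization, at 1.19 and -0.85, and with a common sum, at 1.11 and -0.87.

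Igfbp3, the main carrier of IGFs in serum, lies on chromosome 11 at 7206086 to 7213923 (- strand). It was at 187, 246 and 204 FPKM in the control vault, 99.9, 144 and 132 in the MCAGF8 vault, and 317, 148 and 335 in the base. The MCAGF8 libraries were below every library of both control tissues, by little for base replicate 2. The ratio to the control vault was 0.589 and the fitted difference -0.77 (SE 0.31, limma adjusted p = 0.695). Against the base the ratio was 0.470 and the difference -1.01 (SE 0.31, limma adjusted p = 0.106), just outside the threshold. Without base replicate 2 it was -1.39 and called (limma adjusted p = 0.00454), as were 4561 of 18624 genes. Quantile normalization (-0.84) and a common sum (-0.80) gave the call as well.

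Igfbp5, the most conserved of the binding proteins and one known from bone, was at 556, 600.2 and 499.7 FPKM in the control vault. The MCAGF8 vault held 323, 376 and 429.8, and the base 463, 527 and 810.2. The MCAGF8 libraries lay below both control tissues, which overlapped each other. The difference from the control vault was -0.56 (SE 0.25, limma adjusted p = 0.804). Against the base it was -0.64 (SE 0.25, limma adjusted p = 0.205), and it was called without base replicate 2, at -0.71 (limma adjusted p = 0.0973). In that last fit 4561 of 18624 genes were called.

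Igfbp6, a binding protein that prefers IGF2, lies on chromosome 15 at 102144362 to 102149511 (+ strand) and was the least abundant of the 10 in each group. It was at 11.3, 20.1 and 12.7 FPKM in the control vault, 4.75, 8.03 and 6.84 in the MCAGF8 vault, and 11.1, 5.85 and 6.73 in the base. The control vault was high in all 3 libraries, and the other groups overlapped. The ratio of MCAGF8 to control vault was 0.445, the lowest among the 10 genes in that comparison. Its fitted difference was -1.04 (SE 0.31, limma adjusted p = 0.342), and that of base against control vault was -0.83 (SE 0.31, limma adjusted p = 0.266).

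Igfbp7, a related protein that binds IGFs only weakly, lies on chromosome 5 at 77349240 to 77408041 (- strand). It was at 33.8, 47.7 and 38.7 FPKM in the control vault, 43.2, 60.4 and 39.6 in the MCAGF8 vault, and 94.6, 56.9 and 61.8 in the base. The base was above the control vault in all 3 libraries. That difference was 0.79 (SE 0.25, limma adjusted p = 0.180). Without base replicate 2 it was 0.93 and was called (limma adjusted p = 0.0885), as were 1335 of 18624 genes. Its exons share 85 bases with Polr2b on the opposite strand, which was at 51.7 to 53.3 FPKM in the control vault and 42.1 to 58.1 in the base.

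Summed over the 6 genes, binding protein FPKM were 2865, 3427 and 3467 in the control vault and 3014, 4182 and 2625 in the MCAGF8 vault. The base libraries held 2175, 1649 and 2591, all below both vault groups. Igfbp5 gave 17.1% ± 2.52 of it in the control vault, 12% ± 3.86 in the MCAGF8 vault and 28.2% ± 5.98 in the base (SD, n = 3 each). Igfbp2 gave 32.0% ± 3.29, 37.5% ± 3.45 and 18.9% ± 5.06. Igfbp3 gave 6.54% ± 0.643, 3.93% ± 0.965 and 12.2% ± 2.87, and its 3 groups did not overlap. Igfbp4 gave 42.6%, 44.9% and 37.0%. These shares were not tested. Per FPKM of binding protein there were 2.16, 2.07 and 2.17 FPKM of ligand in the control vault and 1.61, 1.55 and 1.91 in the MCAGF8 vault. The base libraries, at 3.16, 2.42 and 1.77, overlapped both vault groups.

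**Figure D3:**
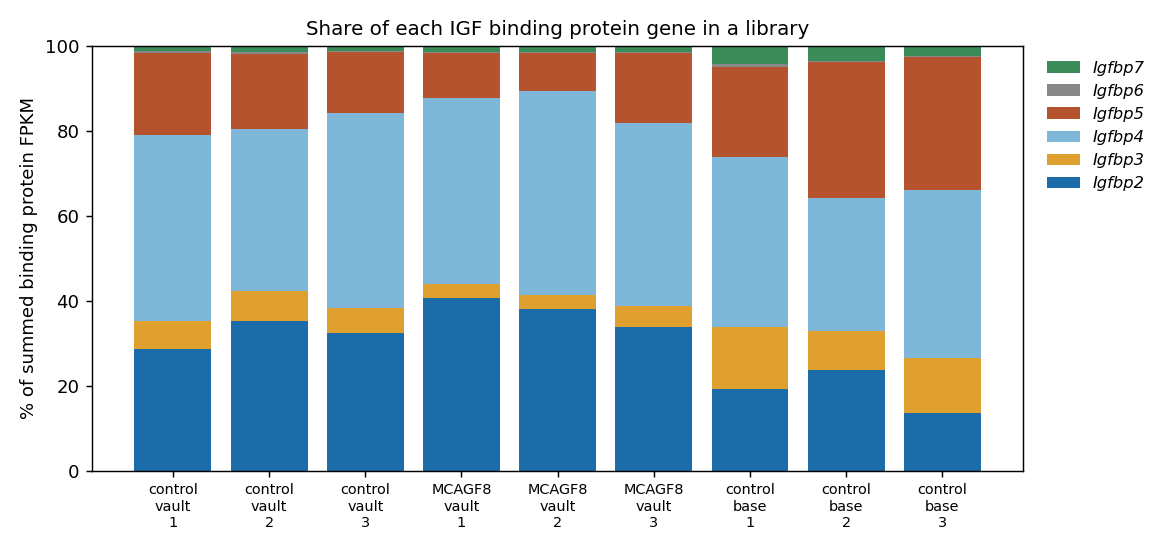
Share of each of the 6 binding protein genes in their summed FPKM (vertical axis, percent), 1 stacked bar per library. Igfbp4 and Igfbp2 make up most of each vault bar, and Igfbp5 and Igfbp3 take more of each base bar, with Igfbp5 at 28.2% on average there against 12% in the MCAGF8 vault.

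Over the 9 libraries, the highest correlation among all pairs of the 10 IGF genes was that of Igfbp2 with Igfbp4 (Pearson r = 0.835 on the log2 scale), followed by Igf2 with Igfbp6 (0.824) and Igfbp3 with Igfbp5 (0.772). The lowest was that of Igf1 with Igfbp2 (-0.782). These values describe 9 points in 3 groups and share the scaling of each library. Among 12934 genes with a mean of at least 5 FPKM, Igfbp2 was most like Aqp1 (r = 0.988), a water channel, Kank4 (0.979) and Fstl1 (0.973), a secreted glycoprotein. Igfbp4 was most like S1pr2 (0.992), Lix1l (0.988) and Tgfb1i1 (0.985). For Igfbp3 the nearest were Cdkn1a (0.982), a cell cycle inhibitor, Idh3a (0.974) and Atg3 (0.973), and for Igfbp5 they were Prkar2a (0.969), Tinf2 (0.958) and Slc11a2 (0.953). Igf1 was nearest to Cfap36 (0.962), Fignl1 (0.952) and Osgepl1 (0.942), and Igf2 to Anxa3 (0.972), Cnn1 (0.961) and Cmbl (0.948). Igf2r was nearest to Bach1 (0.975), Igfbp6 to Dusp27 (0.931) and Igfbp7 to Spata5 (0.970).

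Of 5 genes for proteases that cut binding proteins and for their inhibitors, 0 were called between the vault groups. There 0.604% of all genes were called. In the MCAGF8 vault against the base 2 rose, where 2.98% of all genes did, and in the base against the control vault 2 fell, where 1.21% did. In both cases the genes were Htra1 and Pappa2. Htra1, a secreted serine protease that cleaves IGFBP5, was at 201, 196 and 226 FPKM in the control vault, 321, 471 and 288 in the MCAGF8 vault and 98.7, 73.8 and 70.0 in the base. Its 3 groups did not overlap. The difference between the vault groups was 0.76 (SE 0.23, limma adjusted p = 0.357), and it was called with quantile normalization (0.94) and a common sum (0.93). Against the base Htra1 rose by 2.13 in the MCAGF8 vault (SE 0.23, limma adjusted p = 0.00251), a ratio of 4.46, and the call held in 20 of 20 alternatives. In the base it fell by 1.36 from the control vault (SE 0.23, limma adjusted p = 0.0233), a call lost without control vault replicate 3 (0.124).

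Pappa2, a metalloprotease that cuts IGFBP3 and IGFBP5, was at 25.2, 27.0 and 23.2 FPKM in the control vault and at 26.1, 13.6 and 19.1 in the MCAGF8 vault. The base held 2.92, 6.14 and 8.72, below every vault library. It rose by 1.62 in the MCAGF8 vault against the base (SE 0.34, limma adjusted p = 0.0272) and fell by 2.01 in the base against the control vault (SE 0.34, limma adjusted p = 0.0251). The first call was lost without moderation (0.108) and without MCAGF8 vault replicate 1 (0.125), and the second without moderation (0.115) and without control vault replicate 3 (0.101). Stc1, a stanniocalcin that inhibits PAPP-A proteases, was at 3.91, 4.62 and 3.24 FPKM, 5.06, 5.39 and 6.0, and 7.15, 6.54 and 6.39 in the same order of groups. Its groups did not overlap, and its differences were not called, at 0.40 between the vault groups (limma adjusted p = 0.869).

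**Figure D4:**
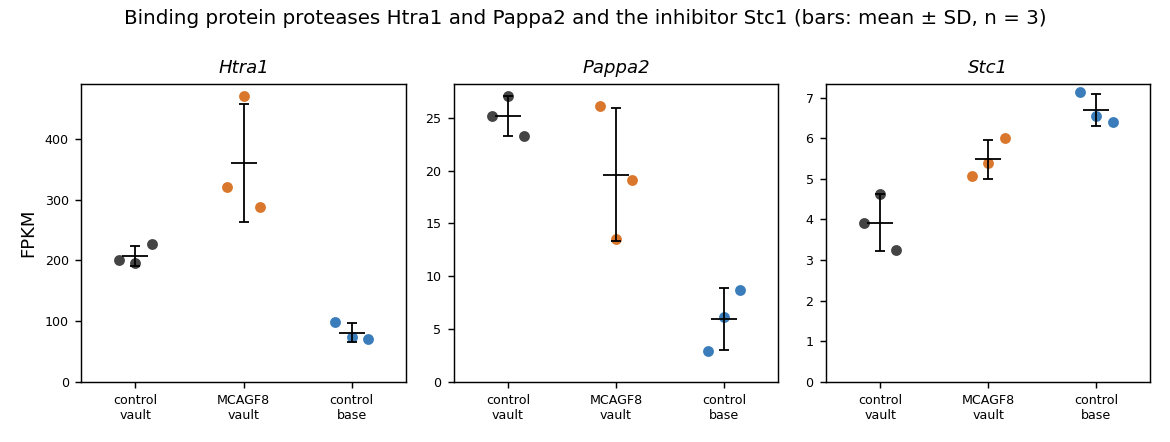
FPKM of the proteases Htra1 and Pappa2 and of the inhibitor Stc1 in each library (points), by group, with the mean and SD of 3 libraries (bars) and a separate vertical axis from 0 for each gene. Htra1 is highest in the MCAGF8 vault, at 288 to 471 FPKM, and both proteases are lowest in the base.

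None of the tested further family members, receptor adaptors and PI3K, Akt and mTOR genes was called in any of the 3 comparisons. Of all genes, 0.604% were called between the vault groups. The share was 8.39% in the MCAGF8 vault against the base and 3.06% in the base against the control vault. Of 8 further ligand, receptor and binding protein genes of the insulin and IGF family, 4 were expressed well enough to be tested and 0 were called in any comparison. One of these, the IGFBP-related gene Kazald1, was at 55.6, 25.5 and 72.1 FPKM in the control vault and 13.9, 30.9 and 17.1 in the MCAGF8 vault, with a difference of -1.23 (SE 0.42, limma adjusted p = 0.490). Of 8 receptor adaptors tested, 0 were called in any comparison. The docking protein Gab1 was at 24.8, 23.2 and 24.2 FPKM in the control vault and at 33.1, 41.8 and 36.1 in the MCAGF8 vault, higher without overlap, with a difference of 0.59 (SE 0.22, limma adjusted p = 0.556). Grb14, an inhibitory adaptor, was at 7.67, 6.03 and 8.47 FPKM in the control vault and at 11.2, 13.9 and 21.7 in the base, a difference of 0.95 (limma adjusted p = 0.138). Grb10, also inhibitory, was at 836, 962 and 846 against 439, 703 and 639, a difference of -0.59 (limma adjusted p = 0.342). Of 19 genes of PI3K, Akt and mTOR signalling, the main route downstream of IGF1R, 0 were called in any comparison. At an unadjusted p under 0.05 limma gave 0 of them between the vault groups (6.34% of all genes), 2 in the MCAGF8 vault against the base (19.6%) and 0 in the base against the control vault (12.8%). Their median differences were 0.09, 0.13 and -0.07.

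Markers of other cell types moved with the groups. Between the vault groups, where 0.604% of all genes were called, bone markers were lower in the MCAGF8 vault for 12 of 12 genes (6 called) and muscle markers for 12 of 12 (7 called), with muscle sums of 1133 to 6909 FPKM in the control vault, 60.3 to 308 in the MCAGF8 vault and 2078 to 12659.6 in the base. Epidermis markers were higher for 10 of 11 (2 called), with sums of 34.3 to 117, 417 to 1049.8 and 118 to 758. Of 12 cartilage markers, 10 were higher and 0 were called. Neuron markers set the base apart, with sums of 344 to 1254 against 48.2 to 101 in the control vault and 60.6 to 92.4 in the MCAGF8 vault. Endothelium sums were 457 to 537, 542 to 682 and 401 to 481 in the order control vault, MCAGF8 vault and base, and macrophage sums 277 to 352, 265 to 417 and 129.7 to 307. Erythroid sums were 12560.2 to 17759.9, 10350.1 to 16242 and 5032 to 11057, and meninges sums 706 to 864, 607 to 1191 and 447 to 957. No marker was at 0 in any library. In the MCAGF8 vault against the base, where 5.41% of all genes were called lower and 2.98% higher, 11 of 12 muscle, 7 of 8 neuron, 4 of 12 bone, 2 of 12 cartilage and 1 of 11 epidermis markers were called lower. Called higher there were 4 of 9 macrophage, 3 of 9 endothelium, 2 of 8 erythroid, 1 of 9 meninges and 1 of 12 bone markers. In the base against the control vault, where 3.06% of all genes were called, 4 of 8 neuron, 1 of 12 cartilage and 1 of 11 epidermis markers were called higher. Called lower there were 3 of 9 macrophage, 2 of 12 bone, 1 of 9 endothelium and 1 of 9 meninges markers, and 0 muscle and 0 erythroid markers were called in either direction. The part of these cell types in the IGF differences was not tested.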

How the data were processed

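RNAseq of 9 pooled libraries, 3 per group, was used. Stranded mRNA kits and single-end reads were used by the authors, who aligned with gSNAP and derived FPKM with Cufflinks. The sources used here give no genome build, annotation release or program version. The deposited values are FPKM for each Ensembl gene, in 1 table. Groups were taken from the sample labels. Depth is unknown, so no counting interval is given, and precision is described by the SD of 3 pools.

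Here, 63 rows repeating an identifier were summed with their partners, and 9 genes holding the placeholder 999999999 were left out. The 18714 genes whose FPKM averaged 0.5 or more entered the fit of log2(FPKM + 1) in limma 3.58.1 (R 4.3.3; lmFit, contrasts.fit, eBayes with trend), which took all 9 libraries and gave each group a mean. Two-sided tests were used, and p-values were adjusted over all genes tested. A fold on the log2(FPKM + 1) scale understates changes of low genes, and ratios are of mean FPKM without the added 1. Calls needed p under 0.05 and adjusted p under 0.1. Tables and plots were made with Python 3.11.15, pandas 2.3.3, numpy 2.4.6 and matplotlib 3.10.9.

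The 10 genes and all lists were chosen with earlier results of these data known. The lists held further family members, binding protein proteases, receptor adaptors, PI3K, Akt and mTOR signalling genes, Igf2 mRNA-binding proteins, imprinted growth genes, overlapping or antisense genes, and markers of 9 cell types. The text names all 10 IGF genes. From each list other than the cell type markers it names, in each comparison, the called members. Where none was called, at most 3 with a mean of at least 5 FPKM and large differences are named. Markers are given mostly as counts and sums of each list. Overlapping or antisense genes are named by their values where the table holds them. For each IGF gene the 3 most similar genes were found by Pearson r over the libraries, and for Igf2r, Igfbp6 and Igfbp7 the first of these is named. Those of Igf1r are not reported here. Gene coordinates are from GENCODE M21 (GRCm38), matched by Ensembl identifier, and promoters from RefSeq (GRCm38.p6), in which all 10 genes matched. Alternatives were other pseudocounts, filters, scalings, thresholds and sets of libraries, a replicate block, no moderation, the highest of repeated rows, and removal of the trend with exon length.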

Additional observations from a re-analysis of the deposited data

How the results depend on the processing

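Each count and each difference was recomputed under other settings, and the cause of the shifts was not tested. IGF genes called in the MCAGF8 vault against the control vault went from 0 to 3 at an unadjusted p under 0.05, and in the base comparisons from 2 to 5 (MCAGF8 vault) and from 1 to 4 (control vault). Quantile normalization gave 4 and 2 in the base comparisons, and a common sum gave 2 in the base against the control vault. Fitting only both groups compared, or adding the replicate block, gave 0 in the base against the control vault, and the replicate block changed no other call of an IGF gene. Leaving out each library in turn gave 1 to 5 in the MCAGF8 vault against the base and 0 to 2 in the base against the control vault. The 5 and the 2 came without base replicate 2. In that fit 4561 and 1335 of 18624 genes were called, against 1571 and 573 of 18714 with all libraries. Removal of the length trend, chosen after seeing the data, gave 4 (with Igfbp3 and Igfbp4) and 2 (with Igfbp6). Joined to a fit of the vault libraries alone it gave 1, Igf1, at -0.79 (limma adjusted p = 0.0597), where the adjusted p ran from 0.0597 to 0.980 over all 20 alternatives.

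No called difference changed sign. Signs turned for Igf2 (0.17 with quantile normalization) and Igf1r (0.13 with a common sum) between the vault groups, and for Igf1r in the MCAGF8 vault against the base (0.075 with quantile normalization, 0.18 with a common sum). With the length trend removed they turned for Igfbp6 in the MCAGF8 vault against the base (0.13) and for Igfbp5 in the base against the control vault (-0.00269), in both fits. Leave-one-out ranges that crossed 0 were -0.17 to 0.10 (Igf1r) and -0.17 to 0.24 (Igfbp4) between the vault groups. In the MCAGF8 vault against the base they were -0.041 to 0.35 (Igf2), -0.39 to 0.28 (Igf1r) and -0.38 to 0.028 (Igfbp6), and in the base against the control vault -0.32 to 0.36 (Igf1r), -0.68 to 0.047 (Igf2r) and -0.16 to 0.25 (Igfbp5).

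Over all genes, 113 were called between the vault groups, 1571 in the MCAGF8 vault against the base and 573 in the base against the control vault. A filter at a mean of 5 FPKM gave 71, 834 and 291, only both groups compared gave 263, 902 and 141, the replicate block gave 19, 918 and 234, and no moderation gave 0, 869 and 257. An adjusted p under 0.05 gave 35, 941 and 255, and leaving out a library gave 11 to 273, 587 to 4561 and 130 to 1335. Between the vault groups a pseudocount of 0.1 gave 191 and no filter 66. Removal of the length trend gave 147, 2510 and 1179 in the fit of all libraries and 339, 1442 and 539 in fits of both groups compared only. Rescaling to a common sum moved the median difference of all genes to 0.13 between the vault groups and 0.11 in the MCAGF8 vault against the base. The correlation of deviations between libraries of the same number ran from -0.55 to 0.37. Between libraries of different number it ran from -0.48 to 0.56. As these ranges overlap, the values do not decide whether pools of the same number share embryos. The depth of the libraries is unknown, so its limit on any value cannot be given.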

Other observations

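Of 3 Igf2 mRNA-binding protein genes, which bind and stabilise target messages, 0 were called in any comparison. Of all genes, 0.604% were called between the vault groups. The share was 8.39% in the MCAGF8 vault against the base and 3.06% in the base against the control vault. Igf2bp3 was at 36.2, 37.5 and 38.4 FPKM in the control vault, 37.9, 40.5 and 39.3 in the MCAGF8 vault, and 25.3, 31.9 and 27.2 in the base. The base was low in all 3 libraries, with a difference of 0.47 for the MCAGF8 vault over the base (SE 0.15, limma adjusted p = 0.122) and of -0.40 for the base against the control vault (SE 0.15, limma adjusted p = 0.274). The first was called without base replicate 2, at 0.56 (limma adjusted p = 0.0367), and under quantile normalization, at 0.51. Without base replicate 2, 4561 of 18624 genes were called in that comparison.

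Of 11 imprinted growth genes tested, 0 were called between the vault groups, with 3 higher and 8 lower. There 0.604% of all genes were called. In the MCAGF8 vault against the base 0 were called, where 8.39% of all genes were. In the base against the control vault 1 fell, where 1.21% of all genes did. This was Dcn, which encodes the matrix proteoglycan decorin. Whether Dcn is imprinted in these tissues was not tested. Dcn was at 641, 800.4 and 741 FPKM in the control vault and 604, 488 and 705 in the MCAGF8 vault. The base held 468, 193 and 258. Its difference of -1.34 (SE 0.32, limma adjusted p = 0.0860) was called in 8 of 20 alternatives, and on leaving out a library only without base replicate 1 or base replicate 2. In these fits 918 of 18621 and 1335 of 18624 genes were called, against 573 of 18714 with all libraries. H19, the imprinted neighbour of Igf2, was at 11579, 15216 and 15590.1 FPKM in the control vault and 10381, 15195 and 11164 in the MCAGF8 vault, and was not tested because base replicate 2 held a placeholder. The other base libraries held 18738 and 13333.

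Of the genes overlapping or antisense to the IGF genes, Igf2os was at 18.5, 34.6 and 21.6 FPKM in the control vault, 10.5, 12.9 and 14.3 in the MCAGF8 vault, and 34.4, 22.3 and 25.4 in the base. The MCAGF8 libraries were below all control libraries. The difference from the control vault was -0.89 (SE 0.26, limma adjusted p = 0.344), and against the base Igf2os fell by 1.05 (SE 0.26, limma adjusted p = 0.0538), a call that held in 13 of 20 alternatives and was lost with the replicate block (0.137), without any MCAGF8 library, and without base replicate 1 or 3. Igf1os was under 1 FPKM in every library, from 0.0940 to 0.644, and Ins2 was listed at 0 in every library but base replicate 1, at 0.793.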
